A study of Mus musculus with 2 samples.

Results

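CD4 and regulatory T cells of 4T1 mouse mammary tumours are described here across 2 single-cell libraries. They were chosen by their counts of a few genes, and 72 of the 28854 cells that passed the cell filter met the rule, 20 in the AptCD4-LNT library and 52 in the Untreated library. A cell needed at least 1 UMI (unique molecular identifier, 1 counted RNA molecule) of the CD3 and T cell receptor genes Cd3d, Cd3e, Cd3g, Trac, Trbc1 and Trbc2, no UMI of Cd8a or Cd8b1, and at least 1 UMI of Cd4, Foxp3, Izumo1r or Tnfrsf4. It could hold at most 1 UMI of Lyz2 and C1qa together, at most 1 of Krt8 and Krt18, at most 2 of Col1a1 and Col3a1, and fewer than 100 of S100a8 and S100a9 per 10000 UMIs, which are limits on macrophage, epithelial, fibroblast and neutrophil RNA. These cells are called the members below. Since counts chose the members, the levels of those genes describe the rule and are not results.

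Both groups were BALB/c mice carrying tumours of 4T1, a BALB/c cell line used as a model of triple-negative breast cancer. The treated mice were given AptCD4-LNT, which the labels describe no further than by this name and a dose in cells, as 5000000, 4000000 and then 3000000 cells, 1 dose every 3 days, and their tumours were taken at day 9. The control mice, called Untreated, were given PBS instead. Tumours of 3 mice were mixed for each library and each group has 1 library, so no difference between the groups has a replicate check, no test is possible, and differences are given as values. The study asked about mobilising and activating CD4 T cells.

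CD4 is the coreceptor of T cells that recognise peptides on MHC class II molecules, and these cells act mainly through cytokines and through help to other lymphocytes. Regulatory T cells are CD4 T cells that depend on the transcription factor Foxp3 and restrain other T cells, partly through Ctla4, which takes costimulatory ligands away, and through Il2ra, the high-affinity chain of the interleukin-2 receptor. In tumours they are known for high levels of Tnfrsf4 (OX40), Tnfrsf18 (GITR), Icos and Ikzf2 (Helios). Izumo1r, also called folate receptor 4, marks regulatory and anergic CD4 T cells.

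The members were few and shallow. The 20 AptCD4-LNT members held 59051 UMIs with a median of 1872.5 per cell and a range of 965 to 20633, and the 52 Untreated members held 70639 UMIs with a median of 1174 and a range of 506 to 3287. One AptCD4-LNT cell with 20633 UMIs held 34.9% of all UMIs of that library's members, while the next deepest held 4070. That cell had no UMI of Cd3d, Cd3e, Cd3g, Trac, Cd4 or Foxp3, and it entered through 33 UMIs of Trbc1, 25 of Trbc2 and 3 of Tnfrsf4. It also held 35 UMIs of Ncr1 and 21 of Tyrobp, an activating receptor and a signalling adaptor known from NK cells, 103 of the granzyme gene Gzmc and 2 of Trdc, the constant region of the gamma-delta receptor. Many values that rest on it are therefore given with and without it, below as "without the deepest cell". Those that set members with Foxp3 against members without Foxp3 are given only with it. The libraries shared 42 barcodes, and 3 Untreated members and 0 AptCD4-LNT members carried 1 of them. Depth over all filtered cells was 98888023 UMIs in the AptCD4-LNT library and 131259762 in the Untreated library.

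**Figure D1:**
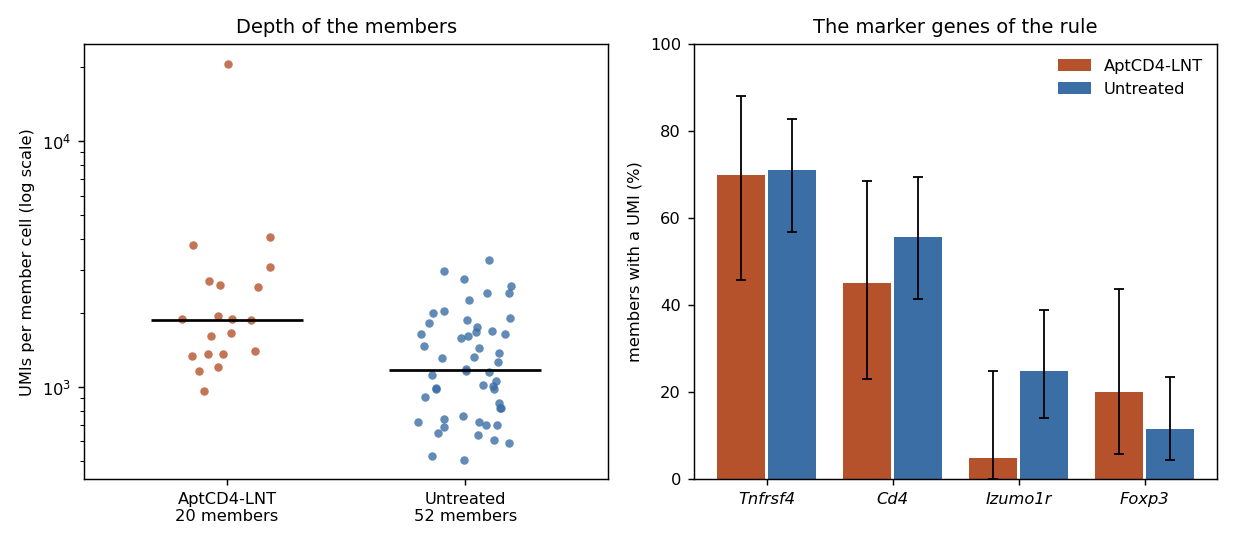
Left, UMIs per member cell on a log axis, with 1 point per cell and a line at the median of each library; right, the percentage of members with at least 1 UMI of each marker gene of the rule, with exact 95% binomial intervals that cover counting error only. The AptCD4-LNT cell with 20633 UMIs stands apart from the other 19, and Tnfrsf4 was the marker seen in the most members of both libraries.

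Tnfrsf4 admitted more members than any other marker gene. A UMI of Tnfrsf4 was present in 14 of 20 AptCD4-LNT members and 37 of 52 Untreated members, and a UMI of Cd4 in 9 of 20 AptCD4-LNT members and 29 of 52 Untreated members. Izumo1r was seen in 1 AptCD4-LNT member and 13 Untreated members, and Foxp3 in 4 AptCD4-LNT members and 6 Untreated members. Tnfrsf4 was the only marker in 7 AptCD4-LNT members and 14 Untreated members, and Cd4 in 5 AptCD4-LNT members and 11 Untreated members. In all, 31 of 72 members held 2 or more of the 4 markers, of which 13 paired Cd4 with Tnfrsf4 alone and 1 held all 4. A member without a Cd4 UMI is not shown to lack Cd4, since 1 missed molecule is enough at these depths. For the same reason a member is not shown to lack Cd8a or Cd8b1. Of the cells with a CD8 UMI that met the same limits, 1 of 29 in AptCD4-LNT and 34 of 310 in Untreated held Tnfrsf4. Izumo1r was held by 0 of them in AptCD4-LNT and 7 in Untreated, and Cd4 or Foxp3 by 0 in both libraries. How many members are CD8 T cells with a missed CD8 UMI was not tested.

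Close to the thresholds, 27 members passed on a single marker UMI, 9 in the AptCD4-LNT library and 18 in the Untreated library, and 2 members passed on a single CD3 or receptor UMI, 1 in each library. Just outside, 5 AptCD4-LNT cells and 2 Untreated cells met every other condition without a CD3 or receptor UMI, and 62 AptCD4-LNT cells and 138 Untreated cells met every other condition without a marker UMI. A further 1 AptCD4-LNT cell and 39 Untreated cells had a marker but also a CD8 UMI. The limit on Krt8 and Krt18 alone kept out 0 AptCD4-LNT cells and 13 Untreated cells, and that on S100a8 and S100a9 alone kept out 0 AptCD4-LNT cells and 6 Untreated cells.

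RNA of the lineage markers was rare in epithelial cells, which should lack it. Among epithelial cells, defined by at least 10 UMIs of Krt8 and Krt18 and none of Ptprc (CD45, the common leukocyte antigen), Cd4 occurred in 1 cell out of 3468 from AptCD4-LNT and in 0 out of 7513 from Untreated, Foxp3 in 2 cells of each library, and Izumo1r in no cell, which allows a share of up to 0.0865% in AptCD4-LNT and 0.0399% in Untreated. These epithelial cells had a median of 17796 UMIs in AptCD4-LNT and 8869 in Untreated, far above the members. Tnfrsf4 was seen in 0.288% of AptCD4-LNT epithelial cells and 0.266% of Untreated ones. At least 1 of the 6 CD3 and receptor genes was seen in 6.17% of AptCD4-LNT epithelial cells and 5.75% of Untreated ones, most often Trbc1. Once each cell was thinned to 1000 UMIs, the shares were 0.606% in AptCD4-LNT and 0.652% in Untreated. The members held 10 of the 14 Foxp3 UMIs of all filtered AptCD4-LNT cells and 8 of the 17 of Untreated cells, and 14 of 42 Cd4 UMIs in AptCD4-LNT and 46 of 66 in Untreated.

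T cell genes that the rule did not use were present in the members. Of 12 such genes (among them the adhesion and costimulatory receptors Cd2, Cd5 and Cd28, the signalling genes Lat, Lck and Zap70, and the T lineage factor Bcl11b), every member held at least 1, and at least 3 were seen in 17 of 20 AptCD4-LNT members and 37 of 52 Untreated members. Cd28 was seen in 12 AptCD4-LNT members and 26 Untreated members, and Cd2 in 13 AptCD4-LNT members and 29 Untreated members. Epithelial cells with Cd2 made up 0.0577% in AptCD4-LNT and 0.133% in Untreated. The depth of the cells limits these counts: the median member showed 5.5 of the 12 genes in AptCD4-LNT and 4 in Untreated.

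**Figure D2:**
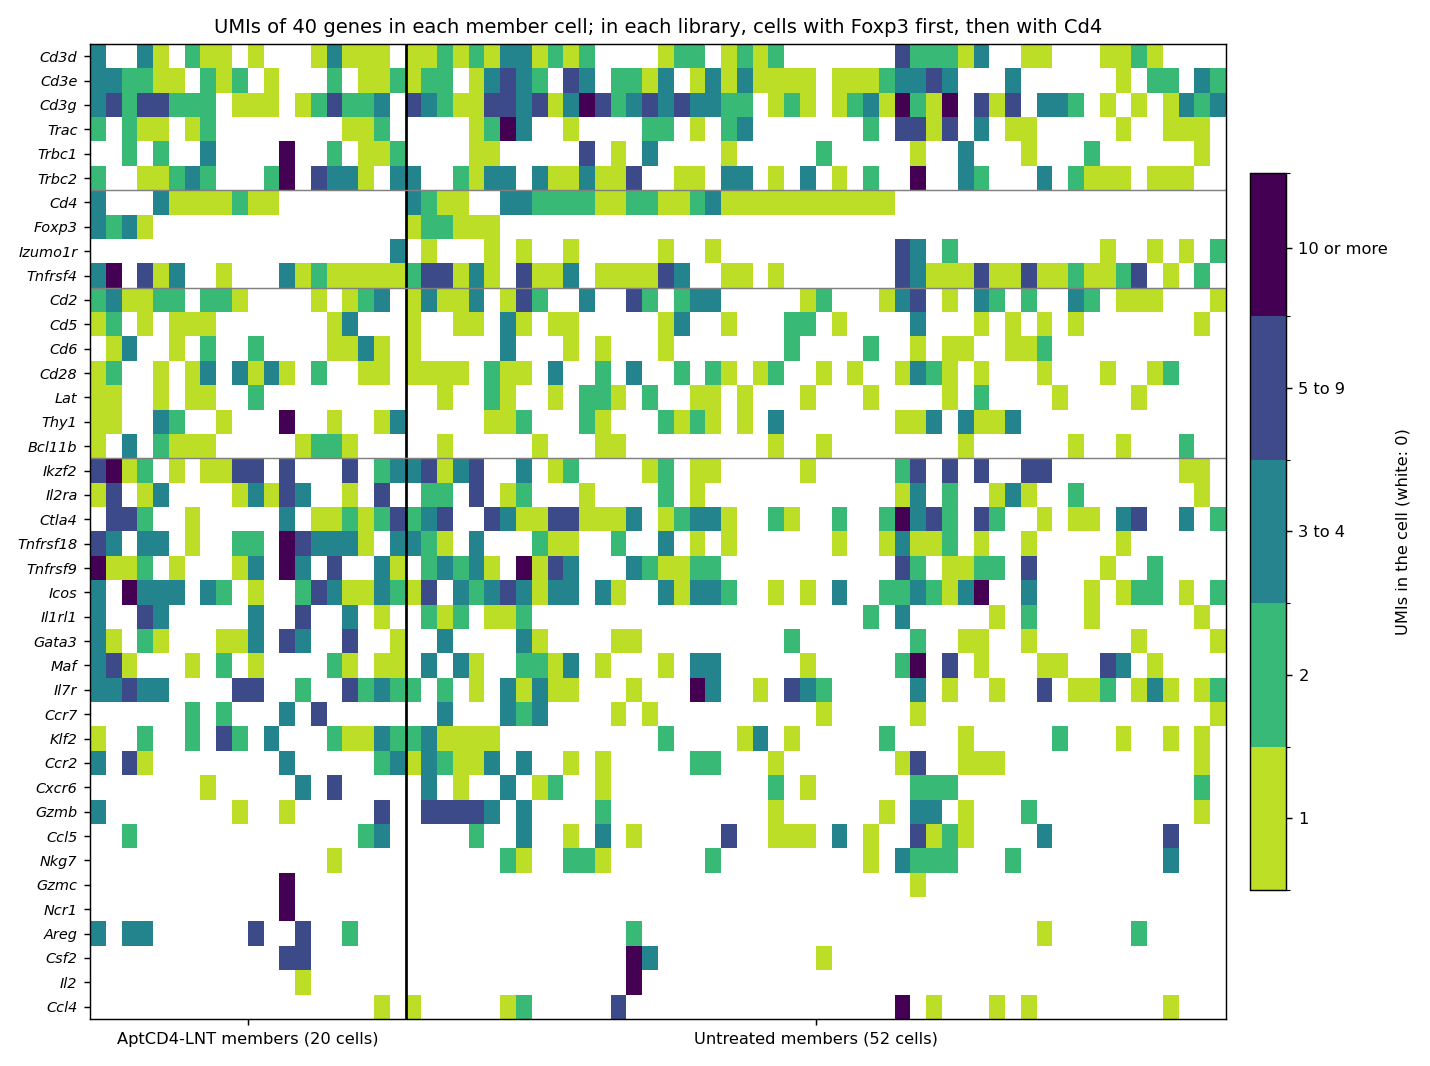
UMIs of 40 genes (rows) in each of the 72 members (columns), AptCD4-LNT at left and Untreated at right, with cells holding Foxp3 first in each library and then cells holding Cd4; white means 0. The 10 cells with Foxp3 also carry Cd3g, and the column with the most UMIs of Gzmc and Ncr1 is the deepest AptCD4-LNT cell.

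Several defining markers of other cell types were at 0 in the members, while their whole lists were not. Cd79a and Ms4a1 of B cells, Adgre1 of macrophages, Flt3 and Xcr1 of dendritic cells and Cpa3 of mast cells had 0 UMIs in all 72 members, which allows up to 23.1 UMIs per 1000000 UMIs. Summed, the B cell list had 2 UMIs in 2 AptCD4-LNT members and 10 in 5 Untreated members, the macrophage list 5 UMIs in 3 AptCD4-LNT members and 19 in 16 Untreated members, and the endothelial list 2 UMIs in 2 AptCD4-LNT members and 13 in 10 Untreated members. The dendritic list, all of it Cd74 (the MHC class II invariant chain), had 2 UMIs in 2 AptCD4-LNT members and 25 in 7 Untreated members. Of these 25, 19 came from 1 Untreated cell that passed on 1 UMI of Cd3g and 1 of Tnfrsf4. The epithelial list had 14 UMIs in 9 AptCD4-LNT members and 15 in 14 Untreated members, and the fibroblast list 13 UMIs in 8 AptCD4-LNT members and 6 in 6 Untreated members. The mast cell list had 1 UMI in each library, the neutrophil list outside S100a8 and S100a9 had 1 in AptCD4-LNT and 4 in Untreated, and the erythroid list had 0. UMIs of gamma-delta receptor genes were seen in 2 AptCD4-LNT members, 1 of them the deepest cell, and in 0 Untreated members. The NK list, 6 genes, summed to 66 UMIs in AptCD4-LNT, of which 65 came from the deepest cell, and to 10 UMIs in Untreated, all of Tyrobp, with Klra8 at 0 in both libraries. The innate lymphoid type 2 list (Il1rl1, Gata3, Areg, Calca, Rora, Csf2) summed to 130 UMIs over 14 of 20 AptCD4-LNT members, with 0 to 37 per cell, and to 98 UMIs over 29 of 52 Untreated members, with 0 to 33 per cell. Regulatory T cells and type 2 innate lymphoid cells share several of these genes. Of the 19 members with Il1rl1, the interleukin-33 receptor, 17 had Cd3g and 6 had Foxp3. One AptCD4-LNT member had a single CD3 or receptor UMI beside 37 UMIs of that list. Of the fibroblast genes, Col1a1 or Col3a1 was present in 12 of 20 AptCD4-LNT members and 5 of 52 Untreated members, and of the neutrophil genes, S100a8 or S100a9 in 6 AptCD4-LNT members and 19 Untreated members. The part that any of these cells or RNAs play in the results below was not tested.

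The members made up a small share of both libraries, and counting error covered the difference. They were 0.226% of cells in AptCD4-LNT (20 of 8853, exact 95% binomial interval 0.138 to 0.349) and 0.260% of cells in Untreated (52 of 20001, 0.194 to 0.341). Divided, the shares gave 0.869 (interval 0.491 to 1.48), a log2 ratio of -0.20. Under a stricter cell filter (500 genes or more, mitochondrial UMIs up to 10%) it was 0.017, with 20 AptCD4-LNT and 41 Untreated members. With no UMI of Lyz2, C1qa, Krt8, Krt18, Col1a1 or Col3a1 allowed it was -1.82, with 4 AptCD4-LNT and 32 Untreated members. That setting is called no UMI of other cell types below. In it S100a8 and S100a9 kept their limit, and other genes of other cell types were not restricted. All intervals cover counting error only and leave out the variation between mice. Those of levels and of ratios of levels treat each UMI as independent, so they also leave out the variation between cells.

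A cell with at least 1 UMI of the 6 CD3 and T cell receptor genes is called CD3-positive here, so a CD3 UMI was not required. Within the CD3-positive cells that met the limits on other cell types, members were 18.02% in AptCD4-LNT (20 of 111, interval 11.4 to 26.4) and 10.4% in Untreated (52 of 500, 7.87 to 13.4), which divided gave 1.73 (interval 0.980 to 2.95). CD8-gated cells, which met the same limits and held Cd8a or Cd8b1, were 26.1% of these cells in AptCD4-LNT (29 of 111, interval 18.2 to 35.3) and 62% in Untreated (310 of 500, 57.6 to 66.3). The cells with neither a CD8 nor a marker UMI were 55.9% in AptCD4-LNT (62 of 111) and 27.6% in Untreated (138 of 500). Set against CD8-gated cells alone, members were 20 of 49 cells in AptCD4-LNT (40.8%) and 52 of 362 in Untreated (14.4%). Without the limits on other cell types the log2 ratio of the share of CD3-positive cells was -0.36, against 0.79 with the limits. The shares were then 23 of 542 cells in AptCD4-LNT and 78 of 1434 in Untreated. Of the 542 and 1434 cells, 214 and 432 were epithelial by the definition above. These ratios are thus shares of unlike sets of cells, and the direction rests on the limits.

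CD8-gated cells of the same library were the nearest group for describing what set the members apart. Expression chose both groups, so this is a description with no test, and the CD8-gated cells were deeper, with a median of 4601 UMIs in AptCD4-LNT and 2116.5 in Untreated. Levels below are counts per 1000000 UMIs (CPM), the UMIs of a gene summed over the cells of a group for each 1000000 of their UMIs. Over 6413 genes outside the rule with at least 20 UMIs, 422 (6.58%) were at least 2-fold higher in members than in CD8-gated cells in both libraries and 165 (2.57%) at least 2-fold lower in both, and the median log2 ratio was 0.07.

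Regulatory T genes outside the rule were among those higher in the members, 7 of 13 by 2-fold in both libraries and 0 lower, with a median log2 ratio of 1.69. Il1rl1 had 457 CPM in members and 6.26 in CD8-gated cells of AptCD4-LNT, and 283 in members and 5.66 in CD8-gated cells of Untreated, where the CD8-gated values rest on 1 and 5 UMIs. Tnfrsf18 had 1304 CPM in members and 113 in CD8-gated cells of AptCD4-LNT, and 467 and 109 in Untreated. Il2ra had 627 in members and 144 in CD8-gated cells of AptCD4-LNT, and 439 and 114 in Untreated. The other 4 were Ikzf2, its relative Ikzf4, Ctla4 and Prdm1, which encodes the effector factor Blimp-1. Icos, the inducible costimulator, was 2.19 higher on the log2 scale in AptCD4-LNT and 2.40 higher in Untreated. Of the innate lymphoid type 2 list, 4 of 5 genes were higher in both libraries and 0 lower, at a median log2 ratio of 3.39, and Il1rl1 is on both lists. The part of such cells in the regulatory values was not tested. Ikzf2 and Gata3 were also read from tumour epithelium: thinned to 1000 UMIs, Ikzf2 was seen in 52.6% of AptCD4-LNT members and 4.12% of epithelial cells, and in 40.6% of Untreated members and 3.02% of epithelial cells.

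Helper T factors and memory genes followed. Maf, a transcription factor of interleukin-10- and interleukin-4-producing CD4 T cells, was higher in members by a log2 ratio of 4.10 in AptCD4-LNT and 5.89 in Untreated. Gata3, the Th2 factor that tumour regulatory T cells also use, was higher by 3.92 in AptCD4-LNT and 2.94 in Untreated; thinned, it was seen in 36.8% of members and 8.97% of epithelial cells of AptCD4-LNT, and in 15.6% of members and 10.0% of epithelial cells of Untreated. Of 8 naive and memory genes, 4 were at least 2-fold higher in both libraries, among them Ccr7, which guides T cells into lymph nodes, Il7r, the interleukin-7 receptor, and Klf2, a factor that maintains lymphoid homing. Ccr7 was 3.34 higher in AptCD4-LNT and 3.15 higher in Untreated, in log2 units. The chemokine receptor Ccr2 was higher by 1.82 in AptCD4-LNT and 3.19 in Untreated. Of the T cell receptor and signalling genes, 2 of 13 (Cd5 and Cd6) passed 2-fold in both libraries, and the list's median log2 ratio was 0.57.

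Immediate early and stress genes were higher in members for 8 of 14 list genes and lower for 0, with a median log2 ratio of 1.49. The deepest cell is part of these values and held 402 of the 890 AptCD4-LNT UMIs of the list. Summed, the list stood at 15072 CPM in AptCD4-LNT members and 12702 without that cell, beside 3438 in CD8-gated cells. Junb, an AP-1 factor, had 2964 CPM in members and 520 in CD8-gated cells of AptCD4-LNT, and 2888 and 699 in Untreated. Junb was in almost every epithelial cell too. Once thinned, it was seen in 81.0% of epithelial cells in AptCD4-LNT and 69.1% in Untreated, against 84.2% of AptCD4-LNT members and 84.4% of Untreated members. Its share in members thus lay near the epithelial share in AptCD4-LNT and above it in Untreated.

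Cytotoxic and cell cycle genes were lower in the members. Of 14 cytotoxic genes, 9 were at least 2-fold lower in both libraries and 1, Klrg1, higher, with a median log2 ratio of -1.84. Gzma, a granzyme, had 0 UMIs in all 72 members, and 372 UMIs in the 29 CD8-gated cells of AptCD4-LNT and 1292 in the 310 of Untreated. Gzmb had 237 CPM in members and 6594 in CD8-gated cells of AptCD4-LNT, and 694 and 4934 in Untreated. Of 13 proliferation genes, 9 were lower in both libraries and 0 higher, with a median of -2.07. Mki67, the Ki-67 antigen, had 1 UMI in the members of each library, and 53 in CD8-gated cells of AptCD4-LNT and 225 in those of Untreated. Birc5, the cell division gene survivin, likewise had 1 UMI in the members of each library. Among inhibitory receptors 0 of 8 were higher in both libraries and 1, Havcr2 (TIM-3), was lower, at log2 ratios of -2.37 in AptCD4-LNT and -1.88 in Untreated.

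**Figure D3:**
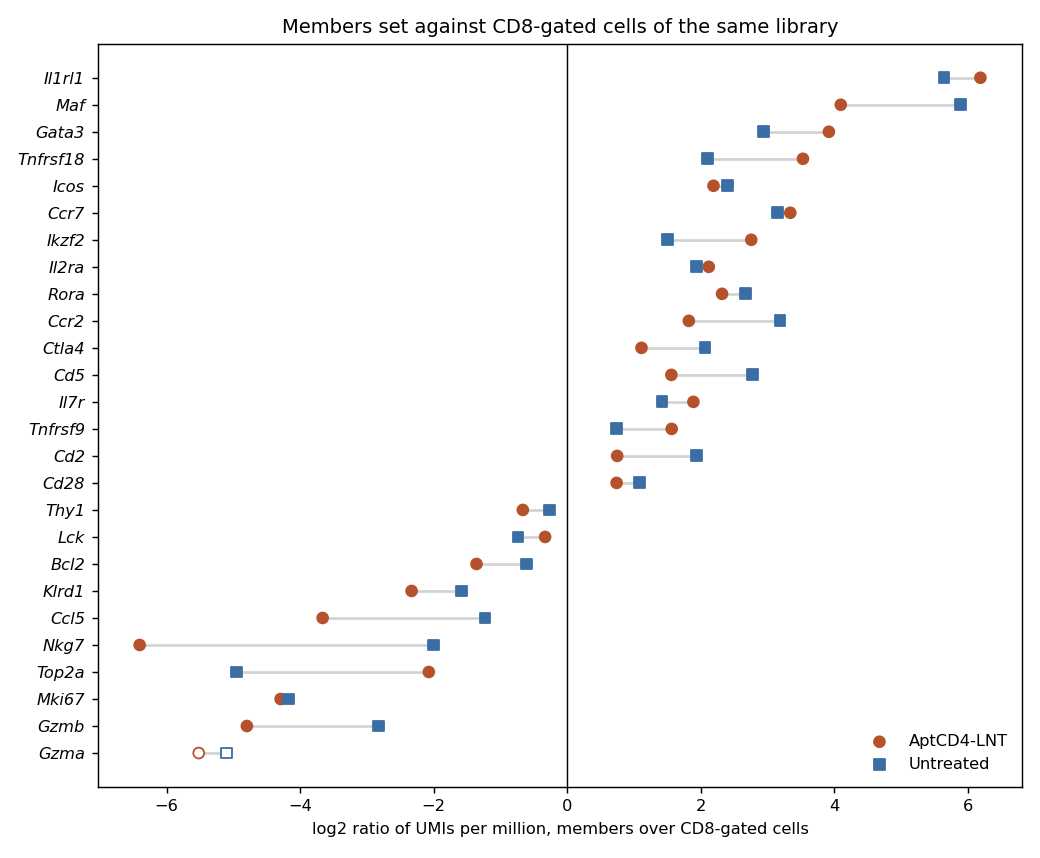
Log2 ratio of CPM in members over CD8-gated cells for 26 genes, computed within AptCD4-LNT (circles) and within Untreated (squares); open symbols are bounds, where members held 0 UMIs and 3 UMIs were taken in their place. All 16 genes above Thy1 are to the right of 0 in both libraries, and the granzyme, Nkg7, Ccl5 and cell cycle genes are to the left in both.

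The genes with the largest ratios over CD8-gated cells by the naming rule were led by cytokine genes seen in a few cells. Csf2, the granulocyte-macrophage colony-stimulating factor, had 14 UMIs in 2 AptCD4-LNT members and 29 in 3 Untreated members, 25 of them in 1 cell. Tnfsf8, the CD30 ligand, had 6 UMIs in 1 AptCD4-LNT member and 27 in 8 Untreated members. Gadd45g owed 150 of its 153 UMIs in AptCD4-LNT to the deepest cell, and its log2 ratio over CD8-gated cells there was 5.23 with that cell and 0.18 without it. Others of the list were Il1rl1, Maf, Ccdc88a, Cd83, Casp4, Ccdc184, Gm20186, Bmpr2, Gadd45b, Cd81 and Gata3. Those with the smallest ratios were Gzma, Gzmf, Ly6c2 and the cell cycle genes H1f5, Birc5, Nusap1, Mki67, Cdca8, Ube2c and Pclaf.

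Cytokines and factors that define helper subsets were sparse. Il17a, Il17f, Ccr6 and Il23r, genes of Th17 cells, had 0 UMIs in all 72 members, as had Bcl6, the follicular helper factor. Tbx21, the Th1 factor T-bet, had 6 UMIs in 4 AptCD4-LNT members and 0 UMIs in Untreated. Ifng had 1 UMI in AptCD4-LNT members and 16 UMIs in 6 Untreated members, and Cxcr6, a tissue residency receptor, 10 UMIs in 3 AptCD4-LNT members and 22 in 12 Untreated members. Il2 had 1 UMI in AptCD4-LNT and 14 in Untreated, and all 14 came from 1 cell. At these counts a subset name cannot be given to single cells.

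More regulatory genes were seen in members with Foxp3 than in those without. Of the 7 regulatory markers outside the rule (Il2ra, Ikzf2, Ctla4, Tnfrsf18, Ccr8, Ikzf4, Lrrc32), at least 3 were seen in 7 of the 10 members with Foxp3 and in 20 of the 62 without. By library, at least 3 were seen in 12 of 20 AptCD4-LNT members and 15 of 52 Untreated members. AptCD4-LNT gave 4 of the 10 members with Foxp3 and 16 of the 62 without. Among CD8-gated cells, at least 3 were seen in 8 of 29 in AptCD4-LNT and 60 of 310 in Untreated. The median depth was 1634 UMIs with Foxp3 and 1362.5 without. The part of library and depth in these counts was not tested. Foxp3 was a gene of the rule, so this too is a description. Ikzf2 was seen in 9 of 10 members with Foxp3 and 25 of 62 without, Tnfrsf9 (4-1BB) in 9 and 27, Ctla4 in 7 and 39, Il2ra in 6 and 21, Il1rl1 in 6 and 13, and Cd4 in 5 and 33. Ccr8, a chemokine receptor of tumour regulatory T cells, had 1 UMI in all members and Lrrc32, which presents latent TGF-beta, had 2, so neither could be read here.

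Ccr2 and Gzmb were seen in a larger part of the members with Foxp3. Ccr2, which guides cells along monocyte-attracting chemokines, was seen in 9 of 10 members with Foxp3 and 15 of 62 without, at a log2 ratio of levels of 2.02. Gzmb was seen in 6 of 10 members with Foxp3 and 12 of 62 without, at 2.91. In Untreated, 5 of the 6 cells with Foxp3 had 3 to 8 UMIs of Gzmb, and in AptCD4-LNT 1 of the 4 had 4 UMIs and the others 0. All 10 members with Foxp3 had Cd3g and 9 had Cd3e. Over the 1204 genes with at least 20 UMIs in members, 97 (8.06%) were at least 2-fold higher with Foxp3 and 179 (14.9%) at least 2-fold lower. The homing list had 5 of 10 genes higher and 0 lower (Ccr2, S100a4, Itgb7, Itga4, Selplg), the regulatory list 3 of 8 higher (Ikzf2, Il1rl1, Capg) and 1 lower (Tgfb1), and the Th1 and effector list 0 of 6 higher and 4 lower, among them Il18r1, the interleukin-18 receptor, at -2.66 and Ccl5 at -1.06. The 62 members without Foxp3 include the deepest cell, which held 20633 of their 111152 UMIs. These ratios and counts of genes are given only with that cell, and its part in them was not tested.

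**Figure D4:**
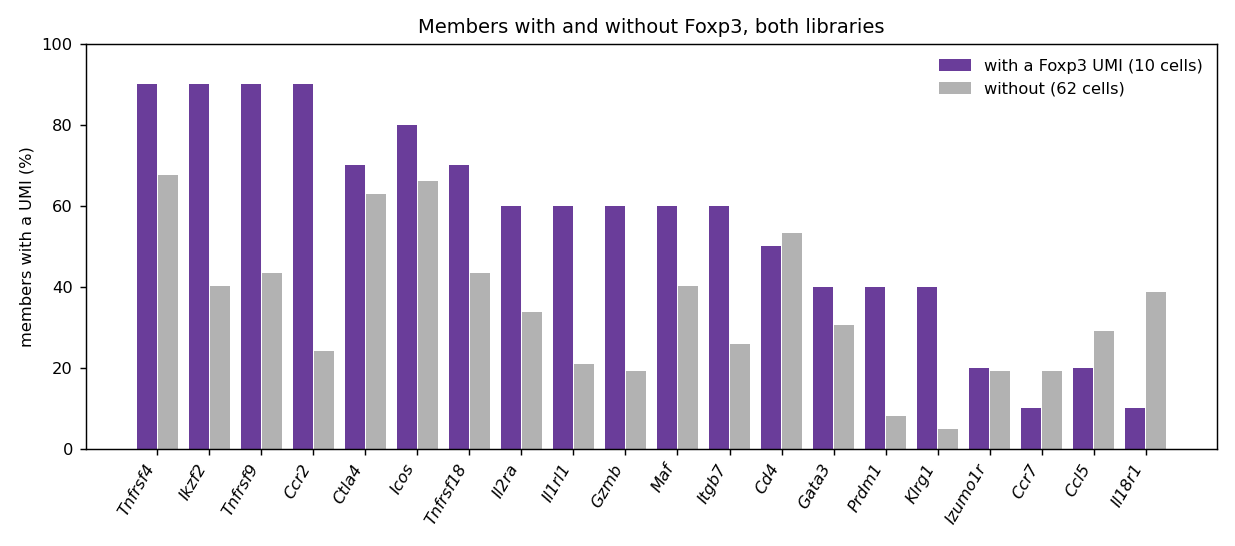
Percentage of members with at least 1 UMI of each of 20 genes, for the 10 members with a Foxp3 UMI and the 62 without, both libraries together. Tnfrsf4, Ikzf2, Tnfrsf9 and Ccr2 were each seen in 9 of the 10 members with Foxp3, and Ccl5 and Il18r1 in a larger part of the members without it.

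By the naming rule the genes most enriched with Foxp3 were Itgb8, Bnip2, mt-Atp8, Fam3c, Ier3ip1, Gzmb, Rps6ka1, Klhl6, Mlec and Sgip1. Itgb8, an integrin chain with which regulatory T cells activate TGF-beta, was seen in 3 of 10 members with Foxp3 and 2 of 62 without. Bnip2 was seen in 6 and 2 cells, and Sgip1 in 6 and 3. Each of these counts rests on 18 cells or fewer.

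The libraries' members are set side by side next, with the limit that 1 library stands for each group. Of the 1204 genes with at least 20 UMIs, 134 (11.1%) were at least 2-fold higher in AptCD4-LNT members than in Untreated members and 106 (8.8%) at least 2-fold lower. Without the deepest cell, 66 of 956 genes (6.9%) were higher and 89 (9.31%) lower, and 25 of the 134 and 58 of the 106 genes were among these. The smaller number tested comes from genes that no longer reached 20 UMIs.

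The levels of the genes of the rule describe how the members were chosen, and nothing is read from them. Foxp3 was seen in 4 of 20 AptCD4-LNT members (20%, interval 5.73 to 43.7) and 6 of 52 Untreated members (11.5%, 4.35 to 23.4), with 10 UMIs (169 CPM) in AptCD4-LNT and 8 (113 CPM) in Untreated. The log2 ratio of levels was 0.58 with an interval of -0.91 to 2.12. Thinned to 1000 UMIs, which left out 1 AptCD4-LNT member and 20 Untreated members, Foxp3 was seen in 15.8% of AptCD4-LNT members and 15.6% of Untreated members. Cd4 had 14 UMIs (237 CPM) in AptCD4-LNT and 46 (651 CPM) in Untreated, and Tnfrsf4 38 (644 CPM) and 96 (1359 CPM). Izumo1r had 3 UMIs in AptCD4-LNT and 22 in Untreated. Cd3e had 406 CPM in AptCD4-LNT and 1217 in Untreated, at a log2 ratio of -1.58, and -0.96 without the deepest cell.

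The regulatory T list was split. Of its 8 genes with enough UMIs, 1 was higher and 2 lower in AptCD4-LNT, with a median log2 ratio of 0.22 beside 0.01 over all 1204 genes. Without the deepest cell 2 were higher (Tnfrsf18 and Il1rl1) and 1 lower (Tgfb1), at a median of 0.35. Il1rl1 had 27 UMIs in AptCD4-LNT members and 20 in Untreated members, of 3743 in all filtered AptCD4-LNT cells and 300 in Untreated cells. Thinned, it was seen in 26.3% of AptCD4-LNT members and 18.8% of Untreated members. In epithelial cells the thinned shares were 0.433% in AptCD4-LNT and 0.0932% in Untreated. Tnfrsf18 had 1304 CPM (interval 1029 to 1630) in AptCD4-LNT members and 467 (322 to 656) in Untreated members, a log2 ratio of 1.48, and 1.39 without the deepest cell. Thinned, Tnfrsf18 was seen in 63.2% of AptCD4-LNT members and 37.5% of Untreated members, and in none of the AptCD4-LNT epithelial cells and 0.0266% of the Untreated ones. CD8-gated cells held 113 CPM of Tnfrsf18 in AptCD4-LNT and 109 in Untreated. Ctla4 had 542 CPM (371 to 765) in AptCD4-LNT members and 1501 (1229 to 1815) in Untreated members, a log2 ratio of -1.47, and -0.99 without the deepest cell. Thinned, Ctla4 was seen in 42.1% of AptCD4-LNT members and 56.2% of Untreated members. With no UMI of other cell types allowed, which left 4 AptCD4-LNT and 32 Untreated members, the log2 ratio of Ctla4 turned to 0.33. Tgfb1 had 6 UMIs in 2 AptCD4-LNT members, 5 of them in 1 cell, and 29 in 17 Untreated members, at a log2 ratio of -2.01, and -3.98 without the deepest cell. Epithelial cells with Tgfb1 made up 64.1% in AptCD4-LNT and 38.1% in Untreated.

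The other regulatory genes lay within counting error or near it. Ikzf2 had 1355 CPM in AptCD4-LNT and 991 in Untreated, with an interval of -0.03 to 0.94 on the log2 ratio, and 37 of its 80 AptCD4-LNT UMIs came from 1 member with Foxp3. Il2ra had 627 in AptCD4-LNT and 439 in Untreated, with an interval of -0.21 to 1.25. Tnfrsf9 had 982 in AptCD4-LNT and 991 in Untreated.

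Of the 9 activation and costimulation genes, 2 were higher by 2-fold (Nr4a1 and Cd82) and 0 lower, with a median log2 ratio of 0.51. Cd69, an early activation antigen, had 847 CPM in AptCD4-LNT members and 467 in Untreated members, at a log2 ratio of 0.86 with an interval of 0.20 to 1.54; thinned, it was seen in 36.8% of AptCD4-LNT members and 25.0% of Untreated members, and in CD8-gated cells it had 132 CPM in AptCD4-LNT and 169 in Untreated. Nr4a3, induced by T cell receptor signals, had 15 UMIs in 9 AptCD4-LNT members and 4 in 4 Untreated members. Icos had 830 CPM in AptCD4-LNT and 1274 in Untreated, a log2 ratio of -0.62, whose direction did not hold. The ratio was 1.20 in members with no UMI of other cell types. Where cells were thinned and the rule was then applied again, it was 0.55. That set held 15 AptCD4-LNT and 38 Untreated cells, some of them not members. Among the thinned members themselves, Icos was seen in 57.9% in AptCD4-LNT and 59.4% in Untreated. Cd82 owed 25 of its 28 AptCD4-LNT UMIs to the deepest cell.

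Immediate early genes were higher for 4 of 12 list genes (Fosb, Jun, Gadd45b, Gadd45g) and lower for 0, at a median log2 ratio of 0.09. Without the deepest cell 2 of 11 were higher, Gadd45b stood at 0.37 and Gadd45g at 0.14, and the median was 0.27. Over all genes 134 of 1204 (11.1%) were higher, and 66 of 956 (6.9%) without the deepest cell. Fosb had 24 UMIs in 10 AptCD4-LNT members and 4 in 4 Untreated members, at a log2 ratio of 2.84 with an interval of 1.30 to 4.83. Thinned, Fosb was seen in 31.6% of AptCD4-LNT members and 3.12% of Untreated members, but also in 46.0% of AptCD4-LNT epithelial cells and 30.5% of Untreated epithelial cells. For Jun the thinned shares were 31.6% in AptCD4-LNT members and 12.5% in Untreated members, beside 54.9% in AptCD4-LNT epithelial cells and 41.6% in Untreated epithelial cells. For Nr4a1, another receptor-induced gene, they were 42.1% in AptCD4-LNT members and 18.8% in Untreated members, beside 9.05% in AptCD4-LNT epithelial cells and 3.85% in Untreated epithelial cells. Fosb and Jun in members therefore lay below the epithelial share, and all 3 were seen more often in AptCD4-LNT in both cell types. The log2 ratio of Jun turned to -0.93 in the members with no UMI of other cell types, and that of Nr4a1 to -0.46 where 2 marker UMIs were required. The deepest cell held 87 of the 130 AptCD4-LNT UMIs of Gadd45b and 150 of the 153 of Gadd45g.

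Ccl5, Nkg7 and Gzmb were lower in AptCD4-LNT members, with and without the deepest cell. Ccl5, a T cell chemokine, had 8 UMIs in 3 AptCD4-LNT members and 46 in 17 Untreated members, at a log2 ratio of -2.27, and -1.64 without the deepest cell. Nkg7, a cytotoxic granule protein, had 1 UMI in AptCD4-LNT and 26 in 13 Untreated members, at -4.44, and -3.82 without the deepest cell. That 1 UMI was in a member with Tnfrsf4 as its only marker. With Cd4 and Foxp3 as the marker genes AptCD4-LNT held no Nkg7 UMI, and the ratio was a bound of -0.93. Without Tnfrsf4 in the rule it was a bound of -1.43. With the rule applied again after thinning to 1000 UMIs, it was a bound of -1.16. Gzmb had 14 UMIs in 4 AptCD4-LNT members and 49 in 14 Untreated members, at -1.55. In the 4 AptCD4-LNT and 32 Untreated members with no UMI of other cell types the log2 ratio turned to 0.07 for Ccl5 and 0.59 for Gzmb. In CD8-gated cells Nkg7 had 1434 CPM in AptCD4-LNT and 1472 in Untreated, Ccl5 1716 in AptCD4-LNT and 1528 in Untreated, and Gzmb 6594 in AptCD4-LNT and 4934 in Untreated. Of the 8 cytotoxic genes with enough UMIs, 4 were higher and 3 lower, but Gzmc, Gzmd and Ctsw held all their AptCD4-LNT UMIs in the deepest cell. The summed cytotoxic list stood at 4115 CPM in AptCD4-LNT, with 219 of its 243 UMIs in the deepest cell, and at 625 CPM without that cell, against 1939 in Untreated. The Th1 and effector list had 0 of 6 genes higher and 3 lower (Ccl5, Ccl4, Il18r1), at a median of -1.18. Without the deepest cell 2 were lower, at a median of -0.83, and Il18r1 stood at -0.86. Ccl4 had 1 UMI in AptCD4-LNT and 86 in Untreated, 71 of them in 1 cell.

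The T cell receptor and signalling list had 0 of 13 genes higher and 4 lower (Cd2, Cd5, Lat, Zap70) at a median log2 ratio of -0.15, and without the deepest cell 1 of 12 higher and 1 lower at 0.07. Cd2 had 389 CPM in AptCD4-LNT and 991 in Untreated, at -1.35, with -0.73 without the deepest cell and 0.04 in the members with no UMI of other cell types. The log2 ratio of Cd5, -1.01, turned to 0.17 in those members and to 0.051 with no limits on other cell types, and that of Zap70, -1.16, to 0.17 with no limits. Naive and memory genes (5), homing genes (10), interferon response genes (4) and MHC class I genes (7) with enough UMIs had 0 genes past 2-fold in either direction. Without the deepest cell 1 interferon response gene was higher and 2 MHC class I genes were lower, and the naive and homing lists still had 0. H2-K1, a class I heavy chain, had 3522 CPM in AptCD4-LNT and 4502 in Untreated, at -0.35, and -0.02 without the deepest cell.

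**Figure D5:**
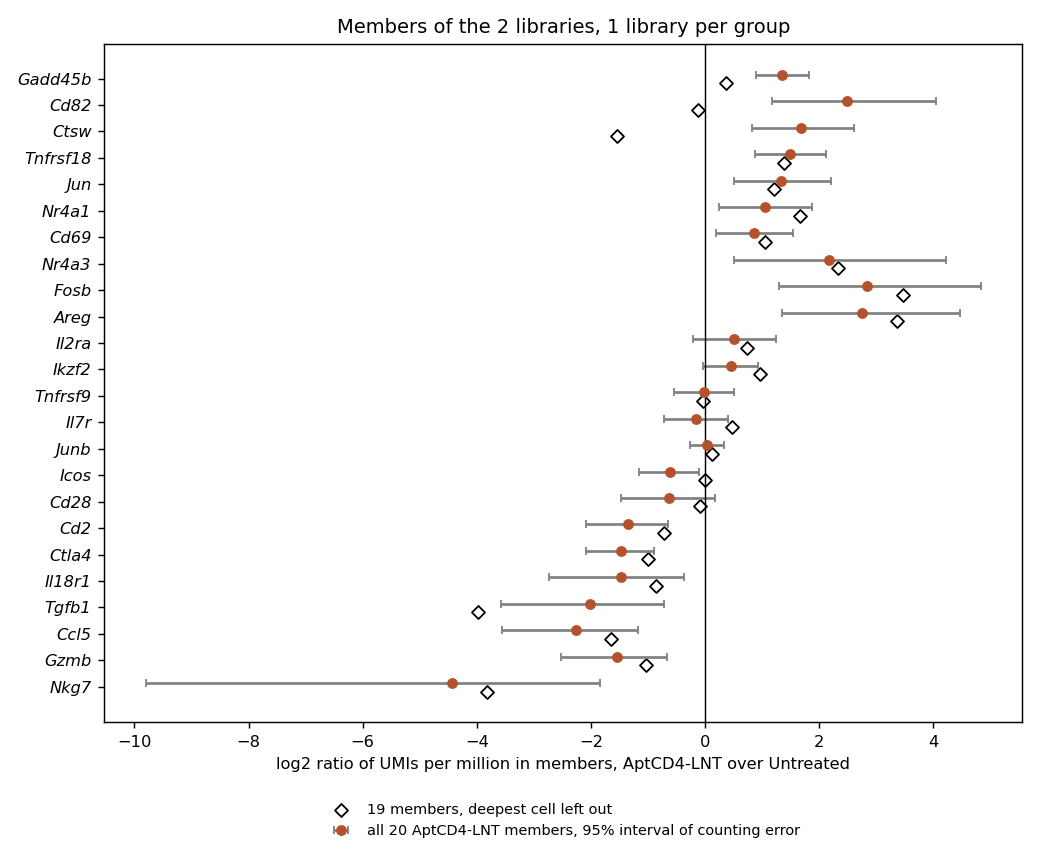
Log2 ratio of CPM in members, AptCD4-LNT over Untreated, for 24 list genes; filled points use all 20 AptCD4-LNT members with exact 95% intervals of counting error, and open diamonds leave out the deepest cell. Tnfrsf18, Cd69 and Fosb stay to the right and Ctla4, Ccl5 and Nkg7 to the left, while Cd82 and Ctsw cross 0 without the deepest cell.

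Areg, the epithelial growth factor that tissue regulatory T cells and type 2 innate lymphoid cells release, had 28 UMIs in 6 AptCD4-LNT members and 5 in 3 Untreated members, at a log2 ratio of 2.74, and 3.36 without the deepest cell. Thinned, Areg was seen in 21.1% of AptCD4-LNT members and 9.43% of epithelial cells, and in 3.12% of Untreated members and 6.59% of epithelial cells. Of the 9 members with Areg, 5 had Il1rl1 and 3 had Foxp3.

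Outside the lists, the largest ratios of AptCD4-LNT over Untreated were those of Sh3bp1, Irf8, Nfkb2, Relb, Gm47283, AA467197, Gm20186, Gas5, Phc3 and Nubp1. The deepest cell held 192 of the 195 UMIs of Irf8, an interferon regulatory factor, and without it the log2 ratio of Irf8 was -1.24 in place of 4.17. Nfkb2 and Relb, subunits of NF-kB, had 22 of 27 and 21 of 26 UMIs in 1 cell. Their log2 ratios were 3.43 and 3.37, and 1.62 for both genes without the deepest cell. Leaving it out also took Gm47283 from 3.23 to 0.66, Gas5 from 2.40 to -0.04 and Nubp1 from 2.33 to -0.44. AA467197 went from 2.98 to 1.36 and Sh3bp1 from 4.51 to 2.88. Phc3, a Polycomb gene, was spread over 12 of 20 AptCD4-LNT members and 5 of 52 Untreated members, at a log2 ratio of 2.40, and 2.46 without the deepest cell. Gm20186, an unnamed gene model, stood at 2.52, and 3.14 without the deepest cell, with 24 UMIs in 5 AptCD4-LNT members and 5 in 4 Untreated members.

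The largest ratios in the other direction were those of Cxcl2, Ifitm1, Il1b, Ccl1, Cycs, Bri3, Mt1, Rgs10, Ctsb and Gm8369. Ifitm1, an interferon-induced membrane protein, had 2 UMIs in 1 AptCD4-LNT member and 28 in 11 Untreated members. Cycs, cytochrome c, had 3 UMIs in 3 AptCD4-LNT members and 25 in 19 Untreated members. Cxcl2 had 0 UMIs in AptCD4-LNT and 42 in 9 Untreated members, 31 of them in 1 cell. Its log2 ratio was a bound of -3.55. The bound was -1.65 without that cell, and also -1.65 without the 1 Untreated member that Scrublet marked as a doublet. Il1b had 4 UMIs in AptCD4-LNT and 34 in 6 Untreated members. Cxcl2 and Il1b are abundant in myeloid cells, and S100a8 and S100a9 were seen in a larger part of Untreated members, as given above. Whether such RNA or the doublet accounts for the values was not tested.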

How the data were processed

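Single-cell RNA libraries were made on the 10x Genomics platform from mixed tumours, 1 library per group. The deposited matrices are raw UMI counts, and the authors used Cell Ranger 7.2.0 and the mouse build GRCm39, per the submitters' processing notes. The cell filter asked for 200 genes and for mitochondrial RNA of 20% or less, and passed 8853 of 8931 AptCD4-LNT barcodes and 20001 of 20040 Untreated barcodes. Counts were summed over the members of a library and given as counts per 1000000 UMIs (CPM). Genes needed 20 UMIs for a count of genes and 2-fold for a call, and a side at 0 was set to 3 UMIs, giving a bound. Shares have exact Clopper-Pearson intervals, levels exact Poisson intervals and ratios exact conditional binomial intervals, all at 95% and for counting error only. With 1 library per group no test was made. Cells were thinned to 1000 UMIs for shares compared between libraries, which kept 19 of 20 AptCD4-LNT members and 32 of 52 Untreated members. Where a log2 ratio or a count of genes is given after thinning, the rule was applied again to thinned cells. That set held 15 AptCD4-LNT and 38 Untreated cells, some of them not members. Doublets were not removed: Scrublet, run as an alternative in scanpy 1.11.5, marked 2.26% (AptCD4-LNT) and 7.45% (Untreated) of cells, 0 AptCD4-LNT members and 1 Untreated member among them.

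Named genes were those of the rule, genes of 28 lists, the 10 genes outside the lists with the largest and smallest ratios between libraries (20 UMIs in 5 cells, interval excluding 1), the 15 highest and 10 lowest against CD8-gated cells, and the 10 highest in members with Foxp3. A few of these genes are not reported here. Members and lists were chosen with earlier results of these data known. Of the list symbols, 3 were matched by gene ID. Python 3.11.15, numpy 2.4.6, scipy 1.17.1, pandas 2.3.3 and matplotlib 3.10.9 were used, and the calculations were tested on simulated data. The 18 alternatives changed the cell filter, rule, limits, thinning, minimum of UMIs and cells left out.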

Additional observations from a re-analysis of the deposited data

How the results depend on the processing

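No paired analysis was possible because each group has 1 library. Against 134 genes higher and 106 lower in AptCD4-LNT members, the higher genes numbered 36 and the lower 69 with Cd4 and Foxp3 as the markers, 34 and 70 with no UMI of other cell types allowed, 502 and 561 with no limits on other cell types, 30 and 55 after thinning, 414 and 280 at 10 UMIs, 27 and 24 at 50 UMIs, and 1395 and 808 with no minimum. The higher genes numbered 46 without Tnfrsf4 in the rule, 71 with gamma-delta receptor genes at 0, 45 without the top cell of each gene, and 66 without the deepest cell, an alternative chosen after seeing the data. Against 422 genes higher than in CD8-gated cells there were 155 with no UMI of other types, 224 with no limits, 95 after thinning, 194 at 50 UMIs and 690 with no minimum. No UMI of other types means none of Lyz2, C1qa, Krt8, Krt18, Col1a1 and Col3a1, with the rest of the rule unchanged. That left 4 AptCD4-LNT and 32 Untreated members. The log2 ratio of the share of filtered cells was then -1.82 and that of Foxp3 levels 2.72. After thinning the rule was applied again, which gave 15 AptCD4-LNT and 38 Untreated cells, some of them not members. With no limits the log2 ratio of the share of CD3-positive cells was -0.36, over 542 AptCD4-LNT and 1434 Untreated cells that included epithelial cells.

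Of 824 pairs of a gene and an alternative, over 56 genes, 77 changed sign. Of these, 48 were for genes whose ratio over all members had a counting interval without 1, and they follow; the cause was not tested. With no UMI of other types the log2 ratios were Cd2 0.043, Ctla4 0.33, Ccl5 0.075, Gzmb 0.59, Jun -0.93, Irf8 -0.19 and Icos 1.20. With Cd4 and Foxp3 as markers they were Cd82 -0.65, Ctsw -1.06, Gadd45b -0.61, Tyrobp -0.65, Irf8 -0.28 and Icos 0.061, and without Tnfrsf4 Cd82 -0.85, Ctsw -0.96, Gadd45b -0.58, Tyrobp -0.43, Irf8 -0.43 and Icos 0.11. After thinning they were Cd82 -0.66, Gzmd -0.40, Klrg1 -0.66, Gadd45b -1.29, Irf8 -0.24 and Icos 0.55. With gamma-delta genes at 0 they were Ctsw -1.39, Tyrobp -2.29, Irf8 -1.09, Gas5 -0.25, Nubp1 -0.29 and Icos 0.028. With cells weighted equally they were Ctsw -1.31 and Tyrobp -0.93, and without the top cell of each gene Ctsw -1.93, Tyrobp -1.96, Irf8 -1.06 and Nubp1 -0.13. Without the deepest cell they were Cd82 -0.12, Ctsw -1.54, Tyrobp -2.44, Irf8 -1.24, Gas5 -0.039, Nubp1 -0.44 and Icos 0.0015. With no limits they were Tyrobp -0.56, Mt1 0.25 and Icos 0.65, and with 2 marker UMIs required Nr4a1 -0.46.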
